A study of Mus musculus with 4 samples.

Results

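The 38 genes described here encode proteins that act in removing superoxide and peroxides or in making and using glutathione. Also among them are the stress factor NRF2, its regulator KEAP1 and genes counted here as NRF2 targets, which make up 10 of the 38. They were listed by name for their place in these systems, with earlier results of these data known, and all 38 of 38 had a value among the 13677 genes measured. They were sorted into superoxide dismutases (3 genes), glutathione peroxidases (5), glutathione synthesis and reduction (6), peroxiredoxins (6), thioredoxins with their reductases (5), NRF2 with KEAP1 and a pair of its targets (4) and glutathione transferases (9).

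RNA was sequenced from inguinal white adipose tissue, a fat depot under the skin, of mice. There were 2 libraries from wildtype (WT) mice and 2 from mice labelled as an adipose knockout of Flcn (FLCNKO). Flcn encodes folliculin, a tumour suppressor that acts with the mTOR pathway, and the series asks about its part in the browning of white fat. The labels give no age, sex, strain, diet, Cre driver or deleted exon, and nothing says whether each library came from a separate animal. The p-values therefore reflect the spread between libraries, which may be partly technical.

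Each library gives a log2 expression value per gene, with a median of 10.76 over all genes and a ceiling of 21.66. The values are not per gene length, so levels are read between libraries, and a level of 1 gene is not ranked against that of another. Sequencing depth is unknown. The targeted gene itself did not separate the groups, with Flcn at 12.36 and 12.21 in WT and at 12.35 and 12.12 under the FLCNKO label (log2 difference -0.05 ± 0.13, SE; limma adjusted p = 0.852). This value does not check the labels, because the deleted part is not given and the tissue holds cells other than adipocytes. FLCNKO in the text stands for that label.

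White adipocyte markers had values above the median of all genes in every library. Their summed log2 level was 21.78 and 21.74 in WT and 21.51 and 21.47 under the FLCNKO label (10 genes), and Pparg, the adipocyte receptor gene, lay between 13.78 and 14.35. Marker sums of other cell types are given because several differed between the groups. Brown or beige markers (8 genes) summed to 14.28 and 13.60 in WT and to 17.65 and 16.36 in FLCNKO. Of the 8, 6 were higher without overlap. Ucp1 overlapped (10.59 and 7.42 in WT, 13.79 and 10.06 in FLCNKO), as did Dio2 (log2 difference -0.08). Fibroblast markers (9 genes) summed to 20.27 and 20.12 in WT and to 19.22 and 19.14 in FLCNKO, and macrophage markers (9 genes) to 17.70 and 17.53 against 16.88 and 16.58. Erythroid markers (5 of 8 with a value) summed to 15.76 and 15.39 in WT and to 14.18 and 15.23 in FLCNKO. Skeletal muscle markers (10 genes) summed to 17.07 and 14.27 in WT and to 15.97 and 13.78 in FLCNKO, which overlapped. The muscle sum of FLCNKO replicate 2 rested on Acta1 (13.32) and Myl1 (11.79). The median distance of the 10 muscle genes from the WT mean was 0.30 in FLCNKO replicate 1 and -6.39 in replicate 2, so these libraries differed in muscle RNA. In WT it was 1.67 and -1.67. Endothelial markers (7 genes) differed by less than the spread between libraries, from 14.98 to 15.31, while epithelial markers (4 of 7) were at 10.48 and 11.33 in WT and 9.12 and 9.35 in FLCNKO. Neutrophil markers (2 of 6) lay between 7.99 and 8.72. In whole tissue, fewer cells of a type and less RNA per cell cannot be told apart.

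Superoxide, a by-product of respiration and of oxidases, is turned into hydrogen peroxide by superoxide dismutases. Peroxides are then reduced by glutathione peroxidases, which draw on the tripeptide glutathione, and by peroxiredoxins, which draw on thioredoxin, and both systems are recharged with NADPH. NRF2 (gene Nfe2l2) is held down by KEAP1 and, when released by oxidants or electrophiles, binds antioxidant response elements near genes of these systems. In fat, mitochondria-rich brown and beige adipocytes respire heavily, and lipid stores give rise to reactive aldehydes such as hydroxynonenal, which glutathione transferases conjugate.

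A core form of the DNA letters that NRF2 recognises is shown for members that carry it upstream of a start site. RefSeq promoter windows of 300 bases (250 before to 50 after a start, build GRCm38.p6, which is not the build named for the deposited values) were held for 32 of the 38 genes, in 44 windows. The core element was searched as TGACNNNGC on both strands. It occurred in 7 of the 44 member windows, in 7 genes, and in 12.4% of all 32851 windows. Variants of this form were not searched. One, TGAGTCAGC, lies before the start in the windows of Gstp1 and Srxn1, so a member without a match may still carry an element. In the stretches that follow, written 5′ to 3′ on the gene's strand, capitals mark the element, which reads in reverse complement in all but Nfe2l2.
Prdx1: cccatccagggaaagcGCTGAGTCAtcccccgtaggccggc
Txnrd1: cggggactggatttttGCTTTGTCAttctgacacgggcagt
Gclm: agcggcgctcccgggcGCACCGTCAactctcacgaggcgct
Sod1: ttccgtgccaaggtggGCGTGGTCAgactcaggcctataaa
Mgst1: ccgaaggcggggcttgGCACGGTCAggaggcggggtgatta
Nfe2l2: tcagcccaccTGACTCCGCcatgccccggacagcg

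These stretches lie on the plus strand at chr4:116685450-116685490 (Prdx1), chr10:82859098-82859138 (Txnrd1), chr3:122245407-122245447 (Gclm), chr16:90220690-90220730 (Sod1) and chr6:138140455-138140495 (Mgst1), and on the minus strand at chr2:75704879-75704913 (Nfe2l2). The element begins 133 bases before the start of Prdx1, 92 before a start of Txnrd1, 134 before that of Gclm, 56 before those of Sod1 and Mgst1, and 240 before that of Nfe2l2. In Srxn1 the match, GCTAGGTCA, lies 28 bases after the start. Of these 7 genes, 3 (Gclm, Srxn1 and Txnrd1) had a higher mean in FLCNKO and 4 (Prdx1, Sod1, Mgst1 and Nfe2l2) a lower one, and none passed the test. The E-box CACGTG, which reads the same on both strands and is bound by MiT/TFE factors, occurred in 2 member windows (Glrx2 and Prdx4) and in 7.15% of all windows. The site of estrogen-related receptors, TCAAGGTCA on either strand, occurred in 0 member windows and in 0.423% of all. No match overlapped one of another motif.

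Across the 38 genes, Gsta4 was the member that passed the test over all genes, and it rose. That is 2.63% of members, near the 1.59% called over all 13677 genes (limma, adjusted p under 0.05, either direction). At an unadjusted p under 0.05 there were 10 members higher and 7 lower in FLCNKO, 44.7% of members, beside 22.4% of all genes (12.1% higher and 10.3% lower) and 25.2% of genes with a mean of at least 8, as every member had. Groups did not overlap for 16 members on the higher side and 13 on the lower, 76.3% of members, beside 54.6% of all genes (29.2% higher and 25.4% lower) and 58% of those with a mean of at least 8. The members' median log2 difference was 0.07 (0.0 over all genes), and their median absolute difference 0.34 (0.25 over all genes). The direction was the same in all 4 fits that left out a library for 31 members, and not for Sod3, Gpx8, Glrx2, Prdx1, Prdx6, Gstk1 and Gstz1.

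**Figure D1:**
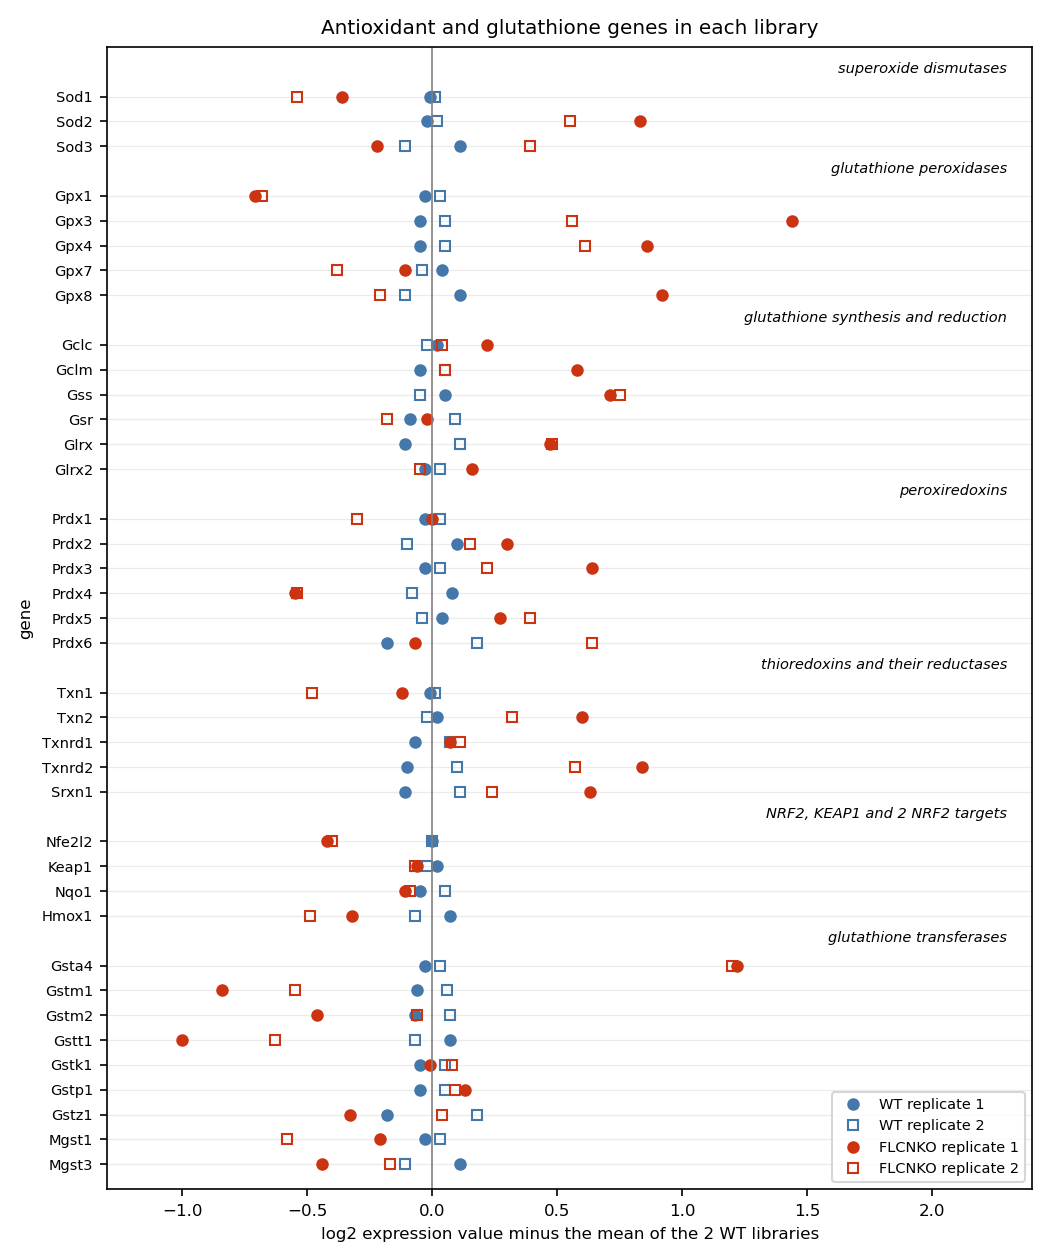
Each point is the log2 value of a gene in 1 library minus the mean of the 2 WT libraries (x axis), with genes grouped by system (y axis), WT in blue, FLCNKO in red, replicate 1 filled and replicate 2 open. Gsta4 stands 1.2 and 1.22 above the WT mean in the FLCNKO libraries, while Gstt1 and Gstm1 lie below it in both.

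**Figure D2:**
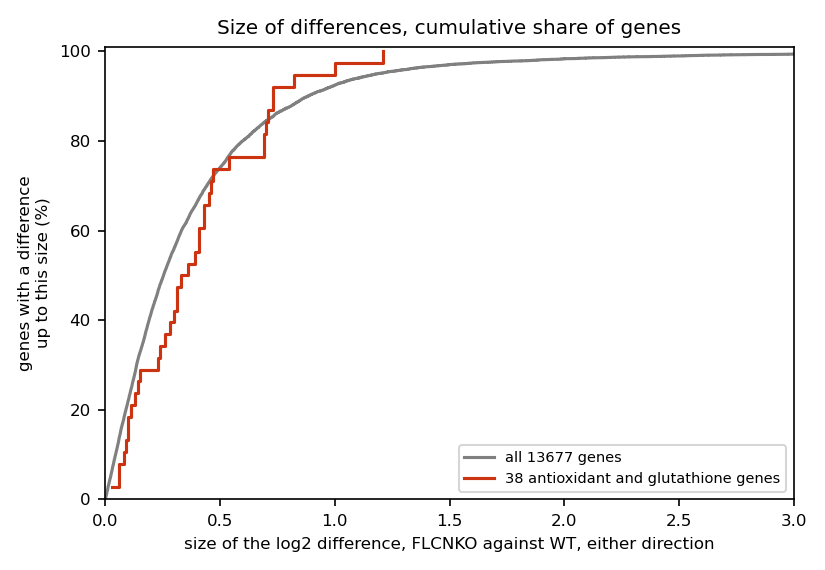
The x axis is the size of the log2 difference between FLCNKO and WT in either direction, up to 3, and the y axis the percentage of genes with a difference up to that size, for all 13677 genes (grey) and the 38 members (red). The red line runs below the grey one at small differences and ends at 1.21, whereas the grey line continues to larger sizes.

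Gsta4, whose enzyme conjugates hydroxynonenal and related lipid aldehydes to glutathione, rose. Its values were 11.24 and 11.31 in WT and 12.50 and 12.48 in FLCNKO, means of 11.28 ± 0.04 and 12.49 ± 0.01 (SD, n = 2). Both FLCNKO libraries lay far above both WT libraries and close to each other. The log2 difference was 1.21 ± 0.11 (SE; 95% interval from 0.94 to 1.48), a 2.32-fold rise (limma adjusted p = 0.0336). It ranged from 1.18 to 1.24 when any 1 library was left out, and its adjusted p was from 0.0615 to 0.246 in those 4 fits and 0.14 without the mean-variance trend. In each of these 5 fits limma called 0 of all 13677 genes, with between 1395 and 3455 at an unadjusted p under 0.05. None of its transcripts' 31-base stretches occurred in transcripts of another gene.

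The other transferases did not pass. Of the 9 transferase genes 6 had a lower mean in FLCNKO, with a median log2 difference of -0.26. At an unadjusted p under 0.05 there were 2 lower, beside 10.3% of all genes. The 15 transferases outside the set had a median of 0.26. Gstt1, the theta-class enzyme, was at 13.41 and 13.27 in WT and 12.33 and 12.71 in FLCNKO. Both FLCNKO libraries were below both WT libraries, the first by more (log2 difference -0.82 ± 0.16, SE; limma adjusted p = 0.0725). Gstm1, of the mu class, was at 14.52 and 14.65 in WT and 13.74 and 14.03 in FLCNKO, again without overlap (-0.70 ± 0.14, adjusted p = 0.0762). Its neighbour in the same class, Gstm2, was at 12.79 and 12.92 against 12.39 and 12.79, so that the second FLCNKO library touched the WT range (-0.26 ± 0.16, adjusted p = 0.418). Of their 31-base stretches 28.8% for Gstm1 and 12.2% for Gstm2 occur in other genes' transcripts, so the division of reads among such relatives is uncertain.

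The membrane-bound transferases Mgst1 and Mgst3, which act on lipid peroxides and leukotriene precursors, were lower by 0.39 and 0.31 in mean log2 value, without overlap between groups and without passing (limma adjusted p = 0.249 and 0.295). Mgst1 was at 16.50 and 16.57 in WT and at 16.33 and 15.96 in FLCNKO. Mgst3 was at 13.93 and 13.71 in WT and at 13.38 and 13.65 in FLCNKO, so its second replicates were near each other. The remaining members of the class lay within 0.15 of 0. They were Gstk1, the kappa enzyme of mitochondria and peroxisomes (0.03 ± 0.11), Gstp1 of the pi class (0.11 ± 0.11) and Gstz1, which works in tyrosine breakdown (-0.14 ± 0.20). Gstp1 shares 38.5% of its stretches with other genes, and 12.2% of the exon bases of Gstz1 overlap genes on the opposite strand.

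**Figure D3:**
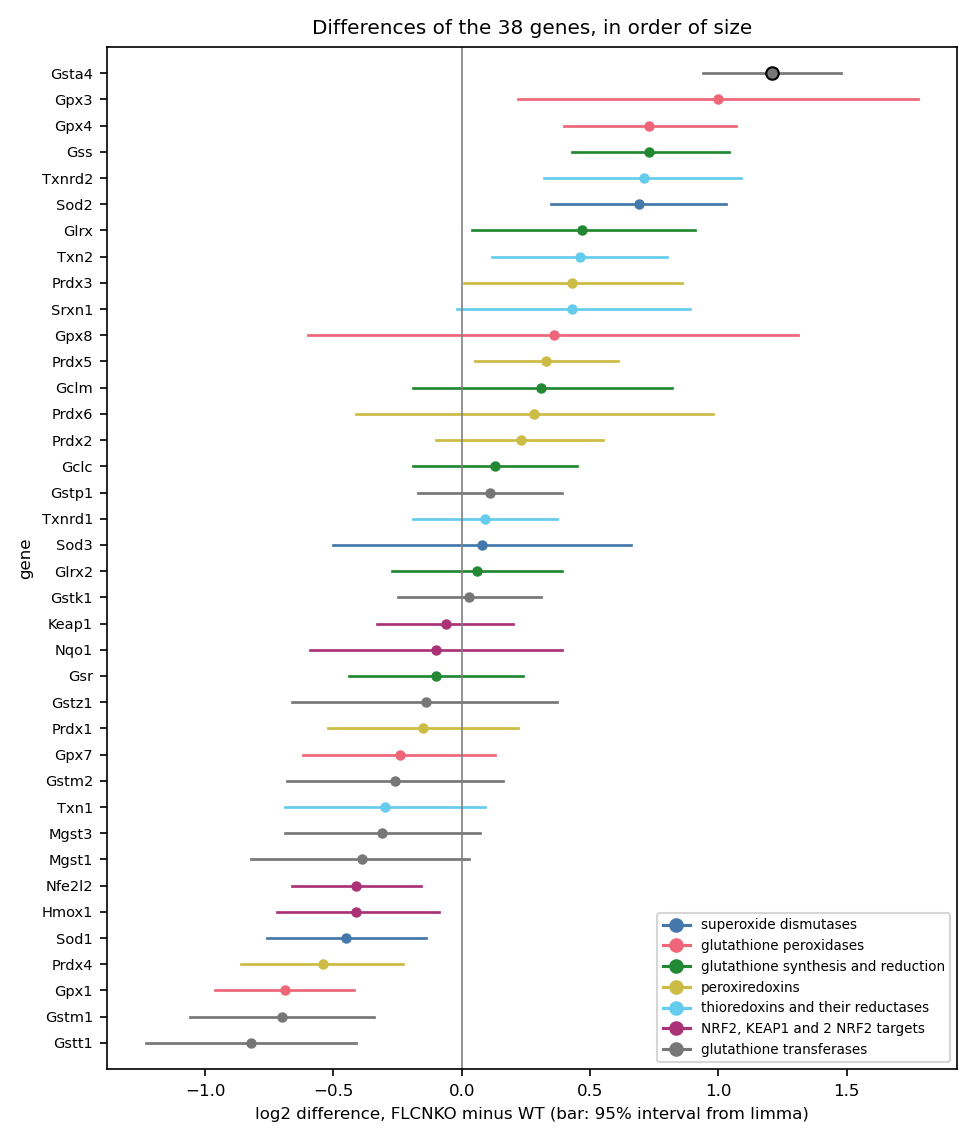
The x axis gives each member's log2 difference, FLCNKO minus WT, as a point with the 95% interval from limma as a bar, and the y axis lists the 38 genes in order of size, coloured by system. Gsta4 (black rim) is at the top with 1.21 and is the gene that passed the adjusted test, and Gstt1 is at the bottom with -0.82.

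Among the superoxide dismutases 0 of 3 passed, with a higher mean of the mitochondrial and a lower mean of the cytosolic enzyme gene in FLCNKO. Sod2, the manganese enzyme of the mitochondrial matrix, was at 13.53 and 13.57 in WT and at 14.38 and 14.11 in FLCNKO. Both FLCNKO libraries lay above both WT libraries, a 1.62-fold higher mean (log2 difference 0.69 ± 0.13, SE; limma adjusted p = 0.0702). Sod1, the copper-zinc enzyme of the cytosol, was at 15.45 and 15.47 in WT and at 15.10 and 14.92 in FLCNKO, lower in both (-0.45 ± 0.12, adjusted p = 0.118). Sod3, the secreted enzyme bound to the matrix, was at 14.92 and 14.71 in WT and at 14.60 and 15.20 in FLCNKO, so that WT lay between the FLCNKO libraries (0.08 ± 0.23, adjusted p = 0.862). Other genes' transcripts hold 26.7% of the 31-base stretches of Sod2.

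Of the glutathione peroxidases 0 of 5 passed, with 3 means higher and 2 lower in FLCNKO. Gpx1, the abundant cytosolic form, was at 15.31 and 15.37 in WT and at 14.63 and 14.66 in FLCNKO. The libraries of each group were close together and the groups were far apart relative to that spread, a 1.62-fold lower mean (-0.69 ± 0.11, SE; limma adjusted p = 0.0547, and 0.048 when genes with a mean under 8 were left out). Gpx4, which reduces lipid hydroperoxides in membranes and guards against ferroptosis, was at 13.85 and 13.94 in WT and at 14.76 and 14.51 in FLCNKO (0.73 ± 0.13, adjusted p = 0.0641). Of its stretches 38.9% occur in other genes' transcripts. Gpx3, the form secreted into plasma, was at 16.09 and 16.18 in WT and at 17.58 and 16.69 in FLCNKO. Both FLCNKO values exceeded WT but differed from each other by nearly as much, and the log2 difference of 1.0 ± 0.30 (adjusted p = 0.148) was 0.56 without FLCNKO replicate 1 and 1.44 without replicate 2.

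The peroxidases of the endoplasmic reticulum lumen, Gpx7 and Gpx8, took no common direction. Gpx7 was at 10.82 and 10.74 in WT and at 10.67 and 10.40 in FLCNKO (-0.24 ± 0.15, SE; limma adjusted p = 0.399). Gpx8 was at 13.17 and 12.94 in WT and at 13.98 and 12.85 in FLCNKO, the highest and the lowest value both under the FLCNKO label (0.36 ± 0.37, adjusted p = 0.628; -0.21 without FLCNKO replicate 1). Of the selenium-containing enzymes in the set, Gpx1 thus had a lower mean in FLCNKO, and Gpx3, Gpx4, Txnrd2 and, by 0.09, Txnrd1 a higher one. Selenium supply genes, which these enzymes need for synthesis, had 0 of 10 called in either direction (limma; 1 higher at an unadjusted p under 0.05) and a median of 0.14. The 2 with the smallest p were Sephs2, which makes selenophosphate (11.95 and 12.03 in WT, 12.55 and 12.51 in FLCNKO, adjusted p = 0.0722), and Scly, which recovers selenium from selenocysteine (0.35 ± 0.15, adjusted p = 0.264).

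In glutathione synthesis and reduction 0 of 6 genes passed, 5 had a higher mean in FLCNKO, and the median log2 difference was 0.22. Gss, glutathione synthetase, stood out within the system with 10.67 and 10.56 in WT and 11.33 and 11.37 in FLCNKO. Its groups were well separated, a 1.66-fold higher mean (0.73 ± 0.12, SE; limma adjusted p = 0.0588). Of its exon bases 15.4% overlap genes on the opposite strand, Acss2 among them, and the strand setting of the counting is not given. The rate-limiting step lies earlier, at glutamate-cysteine ligase. Its catalytic subunit gene Gclc was at 11.19 and 11.14 in WT and at 11.38 and 11.20 in FLCNKO (0.13 ± 0.12, adjusted p = 0.607). Its modifier gene Gclm was at 11.72 and 11.82 against 12.35 and 11.82, so that the second replicates were equal to 2 decimals (0.31 ± 0.20, adjusted p = 0.417).

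Glutathione reductase, which recharges oxidised glutathione, showed no separation. Its gene Gsr was at 11.52 and 11.71 in WT and at 11.60 and 11.44 in FLCNKO (-0.10 ± 0.13, SE; limma adjusted p = 0.701). The cytosolic glutaredoxin gene Glrx, whose enzyme removes glutathione from proteins, was at 9.02 and 9.25 in WT and at 9.60 and 9.62 in FLCNKO, above WT in both (0.47 ± 0.17, adjusted p = 0.194). The mitochondrial glutaredoxin gene Glrx2 was at 11.23 and 11.29 against 11.42 and 11.21, with WT inside the FLCNKO range (0.06 ± 0.13, adjusted p = 0.835).

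Of the 6 peroxiredoxins 0 passed. Without overlap 3 were higher and 1 lower, beside 29.2% and 25.4% of all genes. Prdx4, the form of the endoplasmic reticulum, was at 11.52 and 11.35 in WT and at 10.88 and 10.90 in FLCNKO. Both FLCNKO libraries were low and nearly equal (-0.54 ± 0.12, SE; limma adjusted p = 0.091). Prdx3, the mitochondrial form, was at 13.96 and 14.03 in WT and at 14.64 and 14.22 in FLCNKO, with the larger step in replicate 1 (0.43 ± 0.17, adjusted p = 0.217). Prdx5, found in mitochondria, peroxisomes and cytosol, was at 14.03 and 13.95 against 14.25 and 14.38 (0.33 ± 0.11, adjusted p = 0.175), and 19.1% of its exon bases overlap Trmt112 on the opposite strand.

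The cytosolic forms varied less between groups. Prdx1 was at 15.46 and 15.51 in WT and at 15.49 and 15.18 in FLCNKO, overlapping (-0.15 ± 0.15, SE; limma adjusted p = 0.599). Prdx2, which is also abundant in red blood cells, was at 13.80 and 13.59 against 14.00 and 13.84 (0.23 ± 0.13, adjusted p = 0.369). The erythroid marker sum given above was lower in both FLCNKO libraries than in WT. Of its 5 genes 3 were lower without overlap, while Hbb-bt and Alas2 overlapped between groups. The part of red blood cells in the Prdx2 values was not tested. Prdx6, which also has phospholipase activity, was at 14.81 and 15.17 in WT and at 14.92 and 15.63 in FLCNKO, and differed more within each group than between the group means (0.28 ± 0.27, adjusted p = 0.595).

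In the thioredoxin system 0 of 5 genes passed, and the values are given for the mitochondrial and then the cytosolic pair. Txnrd2, the mitochondrial thioredoxin reductase, was at 10.95 and 11.15 in WT and at 11.89 and 11.62 in FLCNKO, a 1.63-fold higher mean (0.71 ± 0.15, SE; limma adjusted p = 0.0825). Txn2, its thioredoxin, was at 13.38 and 13.34 in WT and at 13.96 and 13.68 in FLCNKO (0.46 ± 0.13, adjusted p = 0.134). Neither gene's groups overlapped. The cytosolic reductase gene Txnrd1 was at 12.23 and 12.36 against 12.36 and 12.40 (0.09 ± 0.11, adjusted p = 0.692). The cytosolic thioredoxin gene Txn1 was at 13.77 and 13.78 in WT and at 13.66 and 13.30 in FLCNKO, lower in both (-0.30 ± 0.15, adjusted p = 0.315). Sulfiredoxin, which repairs overoxidised peroxiredoxins, is encoded by Srxn1, at 11.28 and 11.51 in WT and 12.03 and 11.63 in FLCNKO (0.43 ± 0.18, adjusted p = 0.240).

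Set by compartment, all 6 mitochondrial members (Sod2, Txnrd2, Txn2, Prdx3, Glrx2 and Gstk1) had a higher mean in FLCNKO, with a median log2 difference of 0.45. None of them passed the adjusted test, and 4 were higher without overlap, as were 29.2% of all genes. The differences of Glrx2 (0.06) and Gstk1 (0.03) were small and did not keep their direction when a library was left out. The 27 members placed in none of the mitochondrial, luminal or secreted groups had a median of -0.10, with 12 higher and 15 lower. Each gene was placed in a single group, although some enzymes occur in several compartments. Gstk1 was counted as mitochondrial, while Prdx5 (0.33) and Gpx4 (0.73), which are also found in mitochondria, were counted among the 27. So were Gpx1 (-0.69), Sod1 (-0.45), Mgst1 (-0.39) and Gsr (-0.10), which are found there too and had lower means. These counts depend on that placing, and with the lower genes counted as mitochondrial the direction would not be shared by all. The median distance of the mitochondrial members from the WT mean was 0.62 in FLCNKO replicate 1 and 0.27 in replicate 2. In WT it was -0.03 in replicate 1 and 0.03 in replicate 2. The brown or beige marker sum was 17.65 and 16.36 in FLCNKO replicates 1 and 2 and 14.28 and 13.60 in WT replicates 1 and 2, and its part in these values was not tested.

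Mitochondrial enzyme genes were also set against their cytosolic counterparts as a log2 ratio within each library. Such a ratio is unaffected by a single scaling factor but not by a scaling that acts differently at different levels, as quantile normalization does. The pairs were picked after the values had been seen. For Sod2 over Sod1 the ratio was -1.91 and -1.90 in WT and -0.72 and -0.81 in FLCNKO, a change of 1.14 or 2.21-fold toward the mitochondrial gene. For Txn2 over Txn1 it went from -0.39 and -0.45 to 0.30 and 0.38 (1.70-fold), for Txnrd2 over Txnrd1 from -1.27 and -1.21 to -0.47 and -0.77 (1.54-fold), and for Prdx3 over Prdx1 from -1.49 and -1.48 to -0.85 and -0.96 (1.5-fold). In each of these 4 pairs the WT libraries were within 0.06 of each other and both FLCNKO libraries lay above them. Glrx2 over Glrx went the other way, from 2.21 and 2.05 to 1.82 and 1.60. With 2 libraries against 2, an exact two-sided permutation test cannot go below p = 0.333, which is the value all 5 pairs gave.

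**Figure D4:**
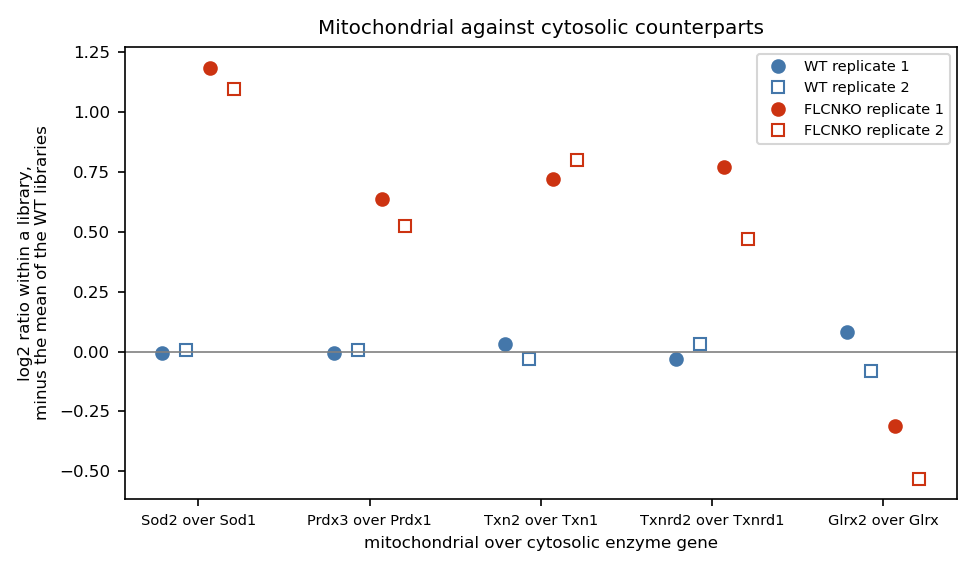
The y axis is the log2 ratio of a mitochondrial to a cytosolic enzyme gene within a library, minus the mean of the 2 WT libraries, for 5 pairs along the x axis, with WT in blue, FLCNKO in red, replicate 1 filled and replicate 2 open. Both FLCNKO libraries lie above WT for the first 4 pairs and below WT for Glrx2 over Glrx.

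In the NRF2 arm 0 of 4 genes passed. All 4 means were lower in FLCNKO without overlap, as were 25.4% of all genes, with a median log2 difference of -0.25. This arm holds only a pair of the members counted here as NRF2 targets. Over all 10 members so counted the means were 5 higher and 5 lower. Nfe2l2, the gene of NRF2 itself, was at 13.49 and 13.49 in WT and at 13.07 and 13.09 in FLCNKO. The libraries within each group were almost identical (-0.41 ± 0.10, SE; limma adjusted p = 0.0999). Hmox1, the stress-induced heme oxygenase, was at 12.45 and 12.30 in WT and at 12.06 and 11.88 in FLCNKO (-0.41 ± 0.12, adjusted p = 0.149). Macrophages, which clear heme, are a known source of Hmox1, and their 9 markers had a median log2 difference of -0.89, with 9 of 9 lower without overlap and 2 passing. Their part in the Hmox1 and Gpx1 values was not tested.

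Keap1 and Nqo1 had the smallest differences of this arm. Keap1 was at 12.10 and 12.05 in WT and at 12.02 and 12.00 in FLCNKO (-0.06 ± 0.10, SE; limma adjusted p = 0.761). Nqo1, a quinone reductase often used to read NRF2 activity, was at 8.67 and 8.76 against 8.60 and 8.63, with a 95% interval of the difference from -0.59 to 0.39 (-0.10 ± 0.19, adjusted p = 0.803). The 10 members counted as NRF2 targets (Nqo1, Hmox1, Srxn1, Gclc, Gclm, Gsr, Txnrd1, Prdx1, Gsta4 and Gstm1) had a median log2 difference of -0.01. Other members may also be targets, so this median and the split of directions depend on that choice.

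Further genes of these pathways were taken from lists of 125 measured genes, of which 2 rose and 4 fell (limma), beside 0.98% of all genes called higher and 0.614% called lower. In glutathione breakdown and recycling 1 of 18 rose and 1 fell. Oplah, which opens the oxoproline ring so that glutamate returns to glutathione synthesis, was at 13.50 and 13.60 in WT and at 14.48 and 14.36 in FLCNKO, a 1.83-fold rise (adjusted p = 0.0452). Ggt5, a gamma-glutamyl transferase at the cell surface that begins the breakdown of extracellular glutathione and of leukotriene C, was at 11.85 and 11.78 in WT and at 10.95 and 10.81 in FLCNKO, a 1.91-fold fall (adjusted p = 0.0456). The median of this list was 0.02.

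Among genes that produce superoxide or peroxide, 1 of 18 rose and 1 fell, and the median log2 difference was -0.30. Nox4, an NADPH oxidase that releases hydrogen peroxide, was at 10.89 and 10.69 in WT and at 9.75 and 9.58 in FLCNKO, a 2.18-fold fall (limma adjusted p = 0.0478). Qsox1, a secreted sulfhydryl oxidase, was at 12.82 and 12.82 in WT and at 13.58 and 13.53 in FLCNKO, a 1.66-fold rise (adjusted p = 0.0478). In this list 7 genes were lower and 3 higher at an unadjusted p under 0.05, beside 10.3% and 12.1% of all genes. The fibroblast markers had a median of -1.0, with 9 of 9 lower and 3 passing, and the part of fibroblasts and macrophages in the oxidase values was not tested.

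Of 26 genes for other peroxide, thiol and methionine repair 0 rose and 2 fell, with a median of -0.10. Pon1, a lipoprotein-bound esterase, was at 11.42 and 11.92 in WT and at 8.72 and 8.68 in FLCNKO, a 7.84-fold fall (limma adjusted p = 0.0336). Selenom, a thioredoxin-like selenoprotein of the endoplasmic reticulum, was at 10.93 and 10.76 in WT and at 9.88 and 9.78 in FLCNKO, a 2.02-fold fall (adjusted p = 0.0478). The 6 called pathway genes kept their direction when any 1 library was left out and without the mean-variance trend, fits in which limma called 0 of all 13677 genes.

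The other lists held no called gene. Over all genes 12.1% were higher and 10.3% lower at an unadjusted p under 0.05. Of 16 NADPH supply genes limma called 0 (5 higher and 0 lower at an unadjusted p under 0.05), with a median log2 difference of 0.30. The smallest p there belonged to Tkt, the transketolase gene of the pentose phosphate pathway, at 15.73 and 16.07 in WT and 17.67 and 17.09 in FLCNKO (1.48 ± 0.24, SE; limma adjusted p = 0.0591), and to Nadk2, the mitochondrial NAD kinase gene (0.86 ± 0.18, adjusted p = 0.0824). Of 15 further transferases limma called 0 (2 higher and 1 lower at an unadjusted p under 0.05), with a median of 0.26. The first by p were Gstt3, at 10.26 and 10.40 against 9.37 and 9.74 (adjusted p = 0.0996), and Gstt2 (0.57 ± 0.19, adjusted p = 0.173), so the theta-class genes did not share a direction.

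Of 23 further NRF2-regulated or partner genes limma called 0, with a median log2 difference of -0.06. At an unadjusted p under 0.05 there were 2 higher and 4 lower, beside 12.1% and 10.3% of all genes. Blvrb, a biliverdin and flavin reductase downstream of heme oxygenase, was at 12.34 and 12.33 in WT and at 11.69 and 11.68 in FLCNKO (-0.65 ± 0.10, SE; limma adjusted p = 0.0556). Ftl1, the ferritin light chain that stores iron, was at 14.63 and 14.76 in WT and at 15.31 and 15.22 in FLCNKO (0.57 ± 0.11, adjusted p = 0.0744).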

How the data were processed

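The authors deposited 1 table per library with log2 expression values for 13677 Ensembl genes. Per the submitters' processing notes, STAR, limma and the build mm9 were used. Their versions, the gene annotation, the read counter and its strand option were not given in the sources used here. Values deposited on this log2 scale share nearly 1 distribution across the 4 libraries, so a shift common to most genes cannot be seen, and depth is unknown. A symbol was found through the Ensembl identifier for 13592 genes, all 38 members included.

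All genes were fitted with limma 3.58.1 in R 4.3.3 (group as the only term, variances moderated with a trend on mean expression, no filter, two-sided, Benjamini-Hochberg adjustment over 13677 genes, threshold 0.05). The fit was tested on simulated data for this comparison (13677 genes, 200 of them changed). It recovered 15.4% of the genes given a log2 change of 1 and 64.6% of the genes given one of 2. These rates depend on the share of changed genes, which is not known for the real data. Members and lists were chosen with earlier results of these data known. All members were named, and of each pathway list the called genes or else the 2 with the smallest p. Marker levels are log2 of the sum of 2 raised to each value. Shared sequence is the share of a gene's 31-base stretches found in transcripts of other genes (GENCODE M21). Alternatives were a filter, other scalings, other variance moderation, a replicate term and leaving out each library.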

Additional observations from a re-analysis of the deposited data

How the results depend on the processing

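Robust moderation changed no call and no direction among the members and the 6 called pathway genes. Repeating quantile normalization and centring medians changed none either. These scalings could hardly alter the values, because every library already had a median of 10.76 and a highest value of 21.66. With genes of a mean under 8 left out, limma called 325 of 11311 genes, among them 1 member higher and 1 (Gpx1) lower. Without the mean-variance trend it called 0 of 13677 genes (2702 at an unadjusted p under 0.05), so 0 members. The labels share replicate numbers, and deviations of same-numbered libraries correlated at 0.36 across 13677 genes, but with 2 pairs and no stated link the libraries share only a number. With a replicate block, 842 genes were called, with 2 members higher (Gsta4 and Gss) and 2 lower (Gpx1 and Gstm1).

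Leaving out 1 library gave 0 called genes of 13677 (1395 to 3455 at an unadjusted p under 0.05), so 0 members called higher, and between 5 and 12 higher and 3 and 11 lower members at an unadjusted p under 0.05. The members' median ranged from -0.0055 to 0.084. Directions of small differences turned: Sod3 ranged from -0.22 to 0.39, Gpx8 from -0.21 to 0.92, Glrx2 from -0.047 to 0.16, Prdx1 from -0.30 to 0.0034, Prdx6 from -0.071 to 0.64, Gstk1 from -0.02 to 0.08 and Gstz1 from -0.33 to 0.04. In these fits 1 group holds a lone library, assumed to vary like the other group.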
